A study of Mus musculus with 11 samples.

Results

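Naive-only open regions are stretches of DNA at which the naive CD8 T cell library had an ATAC-seq peak and none of the other 10 libraries of the study had one that overlapped it. They were found by merging peaks that overlap by at least 1 bp on chromosomes 1 to 19 and X, which gave 111041 merged regions. Of these, 57398 held a naive peak, and 5322 held a naive peak alone. That is 9.27% of the naive regions, and it is the share that the rule itself fixes. Every member held exactly 1 naive peak. The members were therefore chosen by the same naive signal that is described below, and no test is attached to that signal.

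ATAC-seq uses a transposase to cut and tag accessible DNA, so that reads pile up where chromatin is open. All libraries came from CD8 T cells of mouse spleen whose YFP reporter reads out Tcf7 (the TCF1 gene). The naive library (CD44-, CD62L+, YFP+), the antigen-experienced library (CD44+, CD62L+, YFP+) and the effector library (activated ex vivo, harvested at day 3) were 1 library each. The 8 remaining libraries were sorted by YFP at day 3, cultured further and sorted again at day 9, as high_to_high (YFP-high at both sorts, 2 libraries), low_to_low (YFP-low at both, 3 libraries) and low_to_high (YFP-low and then YFP-high, 3 libraries). Nothing in the labels ties replicates to separate mice or cultures, so the spread between them may be technical. The strain, age and sex of the mice and the stimulus are not given in the sources used here. With a single naive library, no statement about naive-only regions has a naive replicate behind it.

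Naive T cells circulate between blood and lymphoid organs in a resting state held by transcription factors such as TCF1, LEF1, FOXP1 and BACH2. On activation, AP-1, NFAT, IRF4 and T-bet open many new enhancers while some enhancers of the resting state lose accessibility. An open region is usually one promoter or enhancer, but a peak list reports windows around summits, so 1 broad element can appear as several windows whose positions differ between libraries.

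Some naive-only windows lay over an annotated gene start, and 6 of these starts are printed here because they show the kinds of naive-only region that carried strong signal. Each line is the 300-base window from 250 bases before to 50 after the start, read 5′ to 3′ on the gene's strand from RefSeq (GRCm38.p6). Capitals mark the bases under the naive-only peak. BC031361 is a long non-coding RNA whose start lies in the shared promoter area of the kinase gene Gsk3b, Shisa5 encodes an endoplasmic reticulum protein linked to apoptosis, and Rgcc encodes a regulator of the cell cycle. At these 3 starts other libraries had a peak within 1 kb of the naive window. Pik3r5 encodes a regulatory subunit of PI3K-gamma, Pim1 a kinase that promotes survival, and Lck the Src-family kinase that starts signalling from the T cell receptor. At the starts of Pik3r5, Pim1 and Lck no other library had a peak within 1 kb. The Pim1 and Lck windows were picked after their values had been seen.
BC031361, chr16:38089211-38089510, strand minus: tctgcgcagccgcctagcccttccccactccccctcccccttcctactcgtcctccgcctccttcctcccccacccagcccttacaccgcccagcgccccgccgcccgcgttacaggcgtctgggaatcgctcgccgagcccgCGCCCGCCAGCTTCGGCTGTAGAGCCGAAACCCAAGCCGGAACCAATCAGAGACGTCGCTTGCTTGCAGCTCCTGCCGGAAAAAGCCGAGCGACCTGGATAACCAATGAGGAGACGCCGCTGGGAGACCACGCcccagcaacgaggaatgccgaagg
Shisa5, chr9:109050907-109051206, strand plus: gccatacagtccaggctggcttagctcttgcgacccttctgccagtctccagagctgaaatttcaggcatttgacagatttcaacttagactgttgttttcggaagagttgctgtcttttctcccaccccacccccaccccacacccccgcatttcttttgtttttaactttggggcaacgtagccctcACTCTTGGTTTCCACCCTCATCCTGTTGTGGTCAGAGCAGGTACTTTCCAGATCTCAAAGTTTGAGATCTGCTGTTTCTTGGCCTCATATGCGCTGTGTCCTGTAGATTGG
Rgcc, chr14:79301586-79301885, strand minus: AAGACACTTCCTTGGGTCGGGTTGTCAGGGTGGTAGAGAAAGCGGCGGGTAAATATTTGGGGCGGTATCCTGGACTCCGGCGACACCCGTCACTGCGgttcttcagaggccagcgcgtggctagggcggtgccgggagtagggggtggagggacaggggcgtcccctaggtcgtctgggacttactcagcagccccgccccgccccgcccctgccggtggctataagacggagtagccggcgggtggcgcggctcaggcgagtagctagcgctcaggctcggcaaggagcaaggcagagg
Pik3r5, chr11:68431875-68432174, strand plus: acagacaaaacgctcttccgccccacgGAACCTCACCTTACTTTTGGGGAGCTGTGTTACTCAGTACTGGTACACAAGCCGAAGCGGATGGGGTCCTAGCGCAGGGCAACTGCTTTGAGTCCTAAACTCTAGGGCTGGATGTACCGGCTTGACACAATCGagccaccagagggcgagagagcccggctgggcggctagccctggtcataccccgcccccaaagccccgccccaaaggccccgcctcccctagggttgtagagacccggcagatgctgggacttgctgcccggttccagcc
Pim1, chr17:29492835-29493134, strand plus: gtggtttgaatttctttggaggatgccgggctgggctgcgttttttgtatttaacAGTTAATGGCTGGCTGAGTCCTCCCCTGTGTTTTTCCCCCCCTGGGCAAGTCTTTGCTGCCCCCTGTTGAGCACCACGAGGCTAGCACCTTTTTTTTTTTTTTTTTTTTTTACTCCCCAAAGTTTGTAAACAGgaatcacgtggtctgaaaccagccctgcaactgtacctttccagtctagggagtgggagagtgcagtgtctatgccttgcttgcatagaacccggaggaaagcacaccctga
Lck, chr4:129573592-129573891, strand minus: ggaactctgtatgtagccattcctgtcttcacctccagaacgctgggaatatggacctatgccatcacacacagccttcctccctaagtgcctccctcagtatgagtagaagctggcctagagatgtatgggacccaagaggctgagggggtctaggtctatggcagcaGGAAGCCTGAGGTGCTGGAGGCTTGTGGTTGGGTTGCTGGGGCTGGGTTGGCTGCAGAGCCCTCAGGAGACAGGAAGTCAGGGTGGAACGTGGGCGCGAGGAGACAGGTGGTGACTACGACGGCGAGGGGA

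The value of a member is the deposited normalized tag count, which scales the window's tags to 10 M tags of the naive library. It ran from 2.67 to 156, with a median of 5.46 and quartiles of 3.86 and 11.3. The 52076 naive regions shared with at least 1 other library had a median of 15.9, quartiles of 7.46 and 36.8, and a highest value of 843.2. The naive-only regions were thus gathered at the low end of the naive signal. The 2.67 at the bottom is also the lowest value of the whole naive list and equals 10 tags, so it marks the limit of calling. Members at that limit lay in Xxylt1, Rfx3, Cnot4 and Il13ra1 and near Rybp, all at 2.67.

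A peak was called weak where its value was under 2 times the lowest of the naive list, that is under 5.34. By this measure 2621 of the 5322 members were weak, or 49.2% (95% Wilson interval 47.9 to 50.6%, which covers counting of regions only), against 15.1% of the shared naive regions. The 2701 that were not weak make up 4.71% of all naive regions. A limit of 1.5 times the lowest value made 30.6% weak, and one of 3 times made 65.4% weak. On the caller's own score, whose threshold was 12 tags, 3132 members (58.9%) scored under 2 times the threshold, against 20.9% of shared regions. The lowest values of the other 10 lists lay between 2.25 and 4.32, and 3417 members (64.2%) had a naive value above all of these. The rest lay at or under the lowest value of at least 1 list, though not of all of them. All 5322 members were above the lowest values of the effector list and of high_to_high replicate 2. For low_to_low replicate 1 the share was 99.7%, and for low_to_high replicate 1 it was 98.5%. A member is missing from all 10 other lists, and the part of these lowest values in that was not tested.

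**Figure D1:**
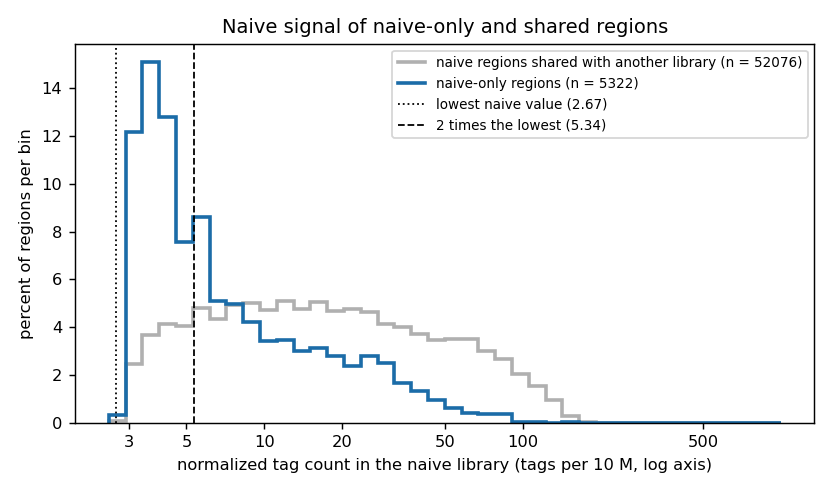
Percent of regions per bin of naive normalized tag count (tags per 10 M, log axis) for 5322 naive-only regions and 52076 naive regions shared with another library. The dotted line is the lowest naive value (2.67) and the dashed line 2 times that value (5.34); 49.2% of naive-only regions lie left of the dashed line.

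The caller had a further limit, since a peak had to hold at least 4 times the signal of the surrounding 10 kb. The median local fold of the members was 5.49, against 11.73 for shared naive regions. Among members, 2109 (39.6%) were under 5-fold, against 7.51% of shared regions, and 1268 (23.8%) reached 8-fold, against 70.7%. Low local folds were found among strong members too. Of the 734 members at 20 or more, 379 (51.6%) were under 5-fold, against 968 of 22329 shared naive regions of that strength (4.34%). Taken with the weak peaks, 3874 members (72.8%) were weak or under 5-fold, against 20.7% of the shared regions. The filter on local signal had removed 46.7% of putative naive peaks and 36.4 to 53.3% over the 11 libraries, per the file headers. A window missing from a list may thus be one that failed this filter, and a naive-only region is not known to be closed in the other cells.

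The weak share and the share under 5-fold were both highest in naive-only regions and lowest in regions called in all 11 libraries, but the weak share did not fall steadily between. Regions shared with exactly 1 other library (4011) had a median naive value of 8 and 32.9% weak, close to the values for regions shared with 2 to 5 others. Regions shared with 9 others (8863) had a median of 14.3 and 12.1% weak, and the 23471 regions called in all 11 libraries had a median of 28.1 and 3.95% weak. Just outside the rule stood the 4011 regions with 1 other library. Of these, 1961 (48.9%) were shared with the antigen-experienced library, the other library sorted straight from spleen, 853 (21.3%) with high_to_high replicate 2 and 519 (12.9%) with the effector library. Each of the 7 remaining libraries held 60 to 167. The 853 shared with high_to_high replicate 2 had a median naive value of 17.9, against 8.53 for those shared with the antigen-experienced library. That replicate had the most tags (59.97 M) and windows of 136 bp. Naive windows were 132 bp wide and those of the 9 remaining libraries 172 bp. The part of depth and window width in these counts was not tested.

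**Figure D2:**
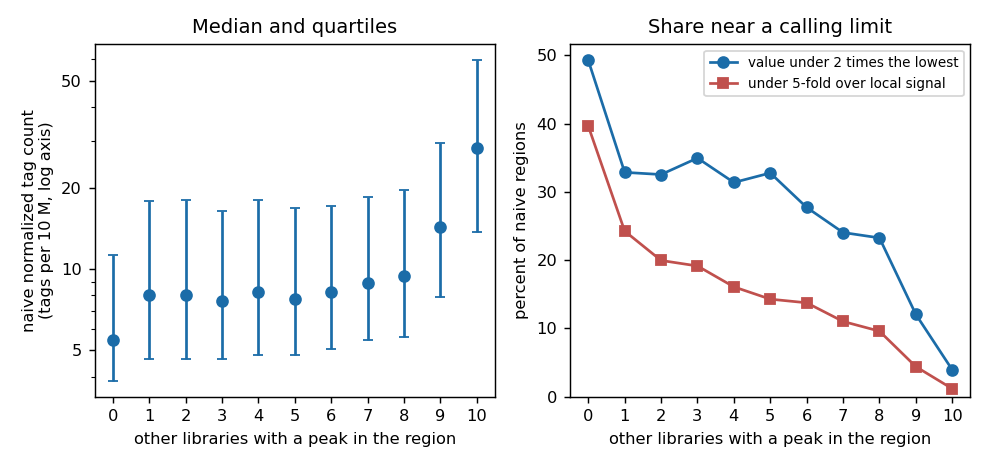
Naive regions by the number of other libraries with a peak in the region (0 is naive-only). Left, median naive normalized tag count with quartiles as bars (log axis); right, percent weak (under 5.34) and percent under 5-fold over the local 10 kb. The median is 5.46 at 0 and 28.1 at 10, and the share under 5-fold falls from 39.6% to 1.18%.

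The same rule applied to each of the other libraries found 25997 regions in the effector library alone, 2592 in high_to_high replicate 2 alone and 1714 in the antigen-experienced library alone. The other day 9 libraries held 355 to 1487. A library with same-group replicates has to differ from these as well, so its count and the naive count are not on an equal footing. Depth ran from 20.84 M to 59.97 M tags, with 37.52 M in the naive library. The naive list had peaks within 500 bp of the starts of 7 of 8 CD8 T cell markers with a listed start (Cd247, Cd3e, Cd3g, Cd5, Cd8a, Lck and Zap70). Of the marker genes of other cells, start peaks were found at 1 of 6 for B cells (Cr2) and 3 of 6 for myeloid cells (Cebpa, Cebpb and Itgam). They were found at 2 of 7 for NK cells, 1 of 7 for dendritic cells (Flt3) and 0 of 6 for erythroid cells. For CD4 and regulatory T cells they were found at 5 of 6 (Ccr4, Ccr8, Ctla4, Il2ra and Zbtb7b). Start peaks thus did not set CD8 T cells apart from that list. None of the 25 naive regions of the B cell list was naive-only, 4 of 37 of the myeloid list were, all of them at Itgam, and 1 of 6 of the erythroid list was, a weak one.

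Naive-only regions fell into 4 kinds by these limits and by what lay nearby, with bounds set after the values had been seen. The 2621 weak regions came first. A further 1446 (27.2%) were not weak but had a peak of another library within 1 kb without touching it. Another 1008 (18.9%) were not weak and had no such peak, but were less than 8-fold over their surroundings. The last 247 (4.64%) were not weak, had no other library's peak within 1 kb and reached 8-fold. The median values of the 4 kinds were 3.86, 12.5, 11.5 and 6.93 and their highest values 5.33, 156, 91.8 and 40.8. The 4 kinds also differed in where they lay. Where the nearest gene had a start in the RefSeq table, 38.3% of 1116 members beside another peak were within 1 kb of a listed start. Of the last kind 1.19% of 168 were, and 79.8% lay over 10 kb from one. The table does not list every start, so these distances can be too long.

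**Figure D3:**
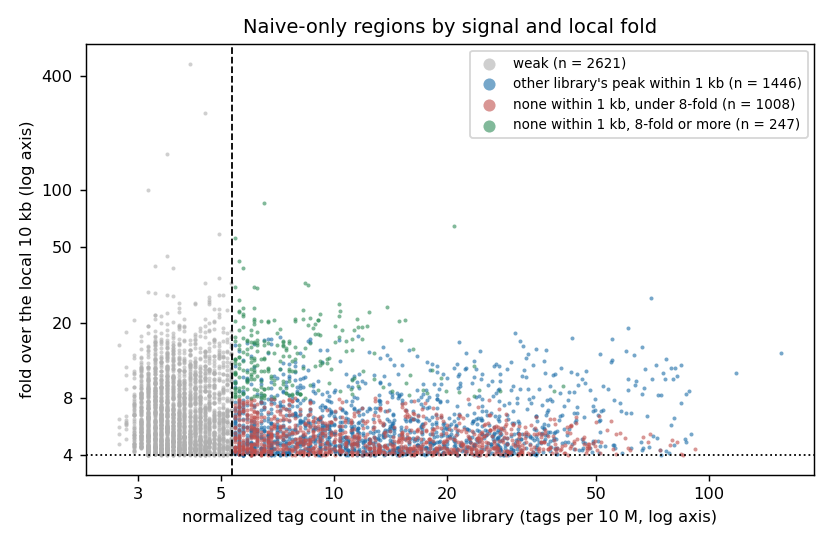
Each point is 1 of 5322 naive-only regions, with its naive normalized tag count (tags per 10 M, log axis) against its fold over the local 10 kb (log axis), coloured by kind. The dashed line is the weak limit of 5.34 and the dotted line the caller's 4-fold limit; the 1008 with no other peak within 1 kb and under 8-fold by definition (red) have a median of 4.72-fold, and the 247 that reach 8-fold (green) have values up to 40.8.

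Many of the strongest members lay beside peaks of every other library. Of the 20 with the highest values (79.4 to 156, 1 per gene), 12 had peaks of all 10 other libraries within 500 bp, and 5 had none within 1 kb. The highest, 156, lay 19 bp outside Hbp1 (chr12:31950549-31950681), the gene of an HMG-box repressor. There the nearest antigen-experienced peak lay 61 bp away at 174.5, the effector peak 60 bp away at 58.8, and the 8 day 9 peaks 5 to 109 bp away at 67.3 to 102.6 (median 97.1). No other naive peak lay within 1 kb, so each library had a window at this promoter, at positions that did not overlap the naive one.

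At the start printed above for BC031361, in Gsk3b (chr16:38089235-38089367), the naive-only window held 118.1 and a second naive window 282 bp away held 135.5. The other libraries' nearest windows held 145.3 in antigen-experienced cells, 70.9 in effector cells and 73.9 to 99.4 (median 83.35) at day 9. The window beside Rgcc (chr14:79301789-79301921) held 80 with no second naive window within 1 kb, and the other libraries had windows 174 to 192 bp away, at 87.8 in antigen-experienced cells, 38.7 in effector cells and 37.2 to 57 (median 51.2) at day 9. Near Irf1 (chr11:53763599-53763731), the gene of an interferon-induced factor, the naive-only window held 82.3, a naive window 230 bp away 85.3, and the nearest others 92.2, 33.6 and 41.2 to 72.6 in the same order. In these 4 loci the naive-only and antigen-experienced windows were higher than the effector window, and the naive-only window was higher than each day 9 window. This did not hold everywhere, since the window of 84.3 in Hdac4 had day 9 neighbours at 67.6 to 98.8. The loci were named for their high naive values, which favours a naive window above its neighbours. The values were also not centred on the median of each library, and window widths differed. The order is thus a description only. Spag7 (88.3), Hnrnpf with the overlapping 4933440N22Rik (87), Hdac4 (84.3), Uspl1 (84.3), Ddx42 (81.3), Tcp11l2 (80.6) and Fam118a (79.4) also had peaks of all 10 other libraries within 500 bp, and so did a region at 89.5 with no protein-coding gene within 100 kb (chr10:19186425-19186557), beside which the antigen-experienced library held 117.8 and the effector library 15.2.

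Over all members, 993 (18.7%) had another library's peak within 200 bp, 1749 (32.9%) within 500 bp and 2296 (43.1%) within 1 kb. The share within 1 kb was 60.5% for members at 20 or more and 32.4% for weak ones. Peaks of all 10 other libraries lay within 500 bp of 523 members. In 480 of these a second naive peak lay within 500 bp as well, and in 43 it did not, as at Hbp1 and Rgcc. In the naive library 2 peak centres could lie as close as 264 bp, and in 9 of the other libraries no closer than 346 bp. Of the 1446 members beside another peak that were not weak, 169 (11.7%) had a naive neighbour nearer than 346 bp, a spacing those 9 lists could not report.

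Other strong members had no peak of another library nearby. Among the 20 strongest, the 5 with no other library's peak within 1 kb were 4.03- to 4.83-fold over their surroundings, close to the limit of 4. Near Zfp36 (chr7:28375580-28375712), which encodes an RNA-binding protein that hastens decay of cytokine messages, the value was 91.8 at 4.32-fold. Between Tspoap1 and the microRNA gene Mir142b (chr11:87755462-87755594), the latter 1247 bp away, it was 85.4 at 4.03-fold. In Bach2 (chr4:32248378-32248510) it was 84.5 at 4.06-fold, near Tpst2 82.2 at 4.72-fold, and at the Pik3r5 start printed above (chr11:68431902-68432034) 79.6 at 4.83-fold. Of the 60 members at 40 or more with no other library's peak within 1 kb, 42 (70.0%) were under 5-fold. The regions at Shisa5 (87, 4.67-fold) and within the T cell receptor beta locus near Prss2 (86.3, 4.88-fold), had other libraries' nearest peaks over 500 bp away. The last, nearest to Zswim4 (80.8, 4.51-fold), lay 10749 bp from Mir23a with peaks of all 10 libraries within 1 kb.

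Genes of the resting T cell program held many naive-only regions. A list of 24 such genes had 362 naive regions (assigned to the nearest protein-coding gene within 100 kb), of which 57 (15.7%) were naive-only, against 9.27% of all naive regions. They lay at 17 of the 24 genes. Only 11 of the 57 were weak, and the 46 that were not make up 12.7% of the list's naive regions, against 4.71% of all. Their median value was 13.3, against 5.46 for all members. None of them belonged to the kind that stood alone at 8-fold or more, since 20 lay beside another library's peak, 26 stood alone below 8-fold, and 32 of the 57 (56.1%) were under 5-fold, against 15.7% of the list's shared naive regions. The list was assembled with earlier results of these data known, so these counts describe it and are no independent evidence. Nor was the share particular to this list. The dendritic cell list had 4 naive-only regions among 25 (16%), and the 3 that were not weak make up 12%. The NK cell list had 3 among 25 (12%), of which 1 was not weak (4%). The inhibitory receptor list had 10 among 66 (15.2%), of which 4 were not weak (6.06%).

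Bach2, which encodes a repressor that holds back effector genes, had 10 naive-only regions among 49 naive regions. Their values were 84.5, 21.1, 16.8, 9.06, 5.73 and 5.73 and, in the 4 weak ones, 3.46 to 4.26. The other libraries had 35 to 42 regions at Bach2. The 12 Bach2 regions open in all 11 libraries had a median of 60.6 in naive cells, 65.8 in antigen-experienced cells, 28.1 in effector cells, 33.2 ± 0.81 (SD, n = 2) in high_to_high, 43.3 ± 4.99 (n = 3) in low_to_low and 37.1 ± 4.1 (n = 3) in low_to_high. The naive and antigen-experienced values were above all 9 values of cultured cells. These values were not centred, and window widths differed. On log2(value + 1) centred on the median of each library, the median difference of effector minus naive over the 12 regions was -0.69. It was -0.15 over all 23471 regions called in all 11 libraries. For antigen-experienced minus naive it was -0.15 at Bach2 and -0.12 over all such regions. For day 9 libraries it was -0.51 to -0.19 at Bach2, against -0.19 to -0.14.

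Foxp1, a forkhead factor that keeps naive T cells quiescent, had 10 naive-only regions among 58, none of them weak, at 6 to 19.9. The other libraries had 33 to 49 regions there. Its 13 regions open in all libraries had medians of 32.2 in naive cells, 31.7 in antigen-experienced cells, 27.3 in effector cells and 15.9 to 22.6 at day 9. The median over the 13 regions of the centred difference, effector minus naive, was positive, at 0.24 on the log2(value + 1) scale, unlike the order of the medians. Lef1, which encodes a partner of TCF1, had 6 among 28. The strongest (chr3:131112037-131112169, 52.9) had no second naive peak within 1 kb, but 5 of the other libraries, effector, both high_to_high and 2 of the low_to_high libraries, had a window 111 to 240 bp away at 23.6 to 32. The next, at 41.3, had only an effector window, of 41.7, within 1 kb. The effector library and 4 day 9 libraries, all YFP-high, thus had called accessibility beside the strongest Lef1 region, at lower uncentred values than the naive window. The antigen-experienced library, the low_to_low libraries and low_to_high replicate 1 had no window within 1 kb of it.

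Tcf7, the gene of the YFP reporter, had 3 naive-only regions among 9 naive ones, and none had another library's peak within 1 kb. The strongest (chr11:52284366-52284498) lay 983 bp outside the gene span and held 32.2 at 4.37-fold. The others held 18.5 at 4.05-fold and 13.6 at 5.22-fold. The first 2 were thus under 5-fold.

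Further members of the list were Satb1, a chromatin organiser, with 4 regions up to 44.2, S1pr1, the receptor that lets T cells leave lymph nodes, with 1 at 43.8, and Ets1 with 4 up to 42.8. The survival gene Bcl2 had 5 up to 27.4, and Foxo1, the factor upstream of Klf2, 4 up to 19.3. Ccr7, a homing receptor gene, had 2 (10.7 and 10.5). Ikzf1 had 1 at 31.6 and Txnip 1 at 29. Cd27, Bcl6 and both Id3 regions were weak (3.46 to 5.2).

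**Figure D4:**
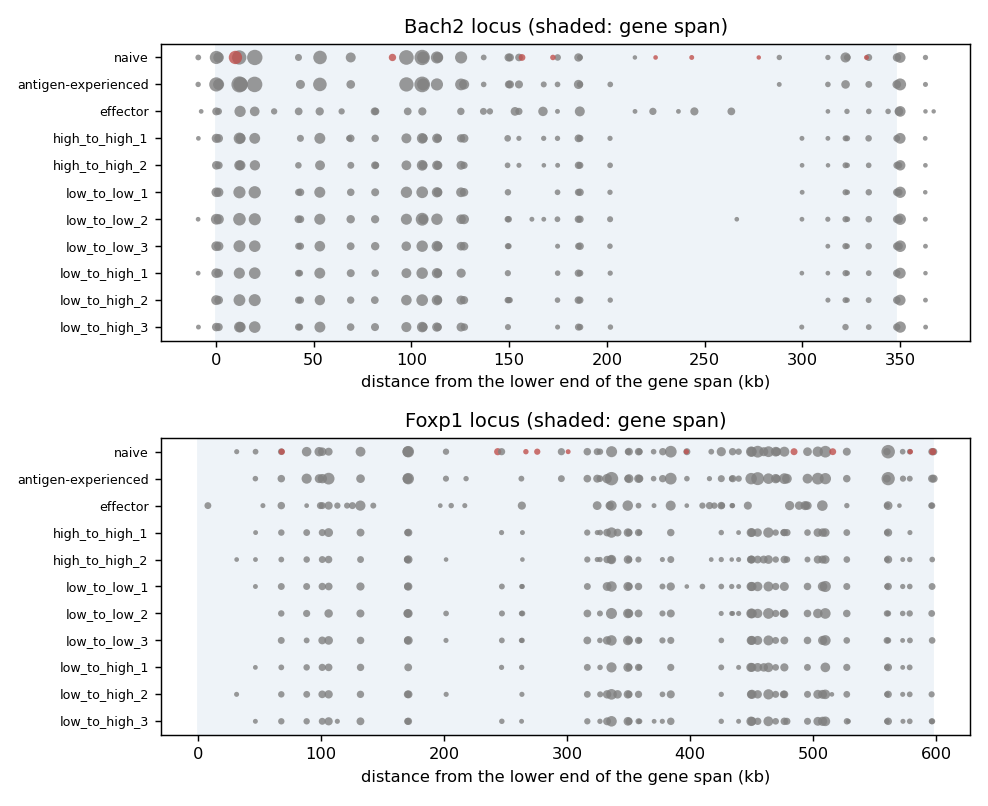
Peaks at Bach2 and Foxp1 in each of the 11 libraries, by distance from the lower end of the gene span in kb. Point area rises with the normalized tag count, red points are naive-only regions (8 of the 10 at Bach2, the other 2 lying outside the stretch drawn, and all 10 at Foxp1), grey points all other peaks, and the shaded stretch is the gene span; several red points sit next to grey points of other libraries and others fall in gaps.

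Effector genes were the next list. Of the 126 naive regions at 24 effector genes, 12 (9.52%) were naive-only, close to the 9.27% of all naive regions. Of these, 10 were not weak, and they make up 7.94% of the list's naive regions, against 4.71% of all. The strongest lay near Klrk1, the gene of the activating receptor NKG2D (30.9), where peaks of all 10 other libraries were within 500 bp, at 63.9 in antigen-experienced cells, 9.78 in effector cells and 41.5 to 56.1 (median 46.7) at day 9. Others lay near Il2rb, an interleukin-2 and interleukin-15 receptor chain (16.5), Ifng (15.5), the chemokine gene Ccl5 (11.2) and Tbx21, which encodes T-bet (9.73). Beside the Ccl5 region, the antigen-experienced peak (92.9) was higher than the naive one (16.5), the effector one (28.1) and those of day 9 (43.1 to 64.7).

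Activation and interleukin-2 genes had 17 naive-only regions among 172 (9.88%), the strongest near Socs1, a brake on cytokine signalling (58, 5.24-fold). Inhibitory receptor genes had 10 among 66 (15.2%), but 6 of these were weak, and the strongest lay in Tox (24.8). CD8 T cell identity genes had 4 among 65 (6.15%), the strongest over the Lck start printed above (chr4:129573590-129573722), with 55.6 at 4.33-fold and 1486 bp from another library's peak. In the remaining lists the strongest members were at Ctla4 (20.4), Nfil3 (26.7), Itgam (22.5) and Zbtb46 (7.86). The regions at Nfil3, Itgam and Zbtb46 had peaks of at least 8 other libraries within 500 bp.

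Members were spread over many genes. They were assigned to 3324 genes, of which 2336 had 1 and 356 had 3 or more. Tcf20, a transcriptional coregulator, had the most, 11 of its 23 naive regions, of which 8 were weak. The other libraries had 7 to 12 regions there. Dyrk2, a kinase gene, had 9 of 25, and the others 9 to 20. Med13l, a Mediator subunit, had 9 of 32, Sgms1, a sphingomyelin synthase, 9 of 37, Zfhx3, a zinc-finger homeobox factor, 9 of 27, and Parp8 8 of 15, a count that 1 further gene shared. Of the naive regions at Parp8, 6 of the 8 naive-only ones were weak, and at Zfhx3 6 of 9. The gene spans of these 8 genes, Bach2 and Foxp1 included, ran from 33.6 kb (Dyrk2) to 682.3 kb (Zfhx3).

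The 5 regions that all 11 libraries shared at Dyrk2 had a median of 64 in naive cells, 47.9 in antigen-experienced cells, 16.5 in effector cells, 28.8 ± 1.41 (SD, n = 2) in high_to_high, 36.3 ± 4.07 (n = 3) in low_to_low and 33.4 ± 2.43 (n = 3) in low_to_high. The naive value stood above all 10 others there. At Sgms1 the 9 shared regions had medians of 38.4 in naive cells and 14.9 in effector cells, and day 9 libraries lay on both sides of the naive value (30.9 to 42.5). At Med13l the naive median was 20.9 and the effector median 20.8, with day 9 libraries at 11 to 17.25. On log2(value + 1) centred on each library's median, the median difference of effector minus naive over these regions was -0.97 at Dyrk2, 0.08 at Sgms1 and 0.51 at Med13l, against -0.15 over all regions shared by the 11 libraries. At Sgms1 the effector median was thus below the naive one while the centred difference was slightly positive. At Med13l the medians were nearly equal and the centred difference was positive. These measures differ in centring and also in taking the difference within each region, and they rest on 1 library each.

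The 247 regions that were not weak, reached 8-fold and had no other library's peak within 1 kb lay mostly far from gene starts. They passed the limits chosen here, but their median value was 6.93, not far above the weak limit of 5.34. The 15 strongest, singled out after their values had been seen, held 16 to 40.8. The first lay in Bcl11b (chr12:107940910-107941042), the factor that commits progenitors to the T lineage, with 40.8 at 9.3-fold and 12654 bp from the nearest peak of another library. The next lay in Clec2d (chr6:129186181-129186313), a ligand of natural killer receptors, with 38.6 at 8.67-fold and 5440 bp away. A region in Ext1 held 27.7, one in Gtf2ird1 23.7 and one in Abtb2 23.6. In Tgfbr2 (chr9:116101962-116102094), a TGF-beta receptor chain, the value was 21.6 at 8.63-fold and 10625 bp from other peaks. A region nearest to Prpf4b (chr13:34837789-34837921) held 20.9 at 64.84-fold and was 26515 bp from other peaks, in an otherwise quiet stretch. Arhgef10 (19.9), Rras2 (19.3), Dock9 (18.3), Slc25a12 (17.3), Lclat1 (16.3) and Alg14 (16) were also among them, and 1 region on chromosome 15 (24.4) had no protein-coding gene within 100 kb. By the definition of this kind the other 10 lists held no window within 1 kb of these regions. The weak limit likewise put each naive value above the lowest value of every list. Neither point is a finding about these regions.

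Members lay inside protein-coding gene spans about as often as shared naive regions did, 60.3% against 62.9%. The 95% Wilson interval of the members' share, 59.0 to 61.6%, covers counting of regions only and no spread between naive libraries. Gene starts were listed for 17274 of 21631 protein-coding genes (79.9%), so distances to a start were read only for regions whose nearest gene has one. Of these, 16.2% of 3962 members lay within 1 kb of a listed start, against 30.8% of 39997 shared naive regions, and 57.4% lay over 10 kb from one, against 45.8%. The gap followed the naive value. Over all naive regions, the share within 1 kb of a listed start was 6.52% for members and 7.46% for shared regions under 5.34, 10.2% and 9.93% from there to 10, 18.6% and 14.8% from 10 to 20, 29.6% and 27.1% from 20 to 40, and 43.2% and 56.3% at 40 or more. These shares are descriptions, with no test. By chromosome the share of naive regions that were naive-only ran from 7.53% on chromosome 7 to 10.9% on chromosome 17.

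At gene starts, 218 members overlapped 240 of the 300-base windows, and 35 of these windows also lay under a shared region. The GC content of the 240 windows had a median of 60.3%, against 61.7% for 10938 windows under shared naive regions and 53% for all 32583 listed starts. Of 10 short motifs searched on both strands, 2 differed most between the sets. The forkhead motif TGTTTAC was in 16 of the 240 windows (6.67%), against 2.23% of windows under shared regions and 3.67% of all. The ETS motif CCGGAAG was in 20 (8.33%), against 20.7% and 8.92%. In the 32 windows under members that were not weak and had no other peak within 1 kb, 5 held the forkhead motif and 1 the ETS motif. The Pim1 window printed above holds the forkhead motif from position 181, counted from its 5′ end and under the naive-only peak, and the Lck window holds the RUNX motif TGTGGTT from position 193. The other motifs were in 0 to 13.3% of the 240 windows, with the T-box motif AGGTGTGA in none, against 0.786% under shared regions. The rest were TCF CTTTGAA, KLF CCACACCC, AP-1 TGANTCA, NFAT TGGAAAA, NF-kB GGGANTTCC and E-box CAGCTG. None of these motifs contains another. A match is a run of letters and not a bound site, and the windows hold bases outside the peak.

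The rule bars peaks that overlap a member, but not peaks close by, so each library's share of members with a close peak can be described. Overlapping peaks of these same lists had been removed, so the shares are not independent of the rule. Window width and the smallest peak spacing also differed between the lists, and their part was not tested. Within 1 kb the antigen-experienced library had a peak at 32.2% of members and the effector library at 25.5%, 1 library each. The share was 25.3% and 27.9% in high_to_high, 25.5%, 24.8% and 24.3% in low_to_high, and 26.7%, 27.8% and 24.5% in low_to_low. The antigen-experienced share was above every other although that library was among the shallower ones (23.47 M tags). The 5 YFP-high libraries of day 9 averaged 25.6 ± 1.40% (SD) and the 3 YFP-low ones 26.4 ± 1.68%, and their ranges overlapped. The difference of -0.81 percentage points was smaller than the spread between replicates (two-sided exact permutation test, p = 0.5, where the smallest possible p is 0.0357). Since the same lists had been used to choose the members, no conclusion about the YFP groups is drawn from this test. Among day 9 libraries the shares also followed depth in part, as the deepest (59.97 M) had the highest share and the shallowest (20.84 M) the lowest. The part of depth was not tested.

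**Figure D5:**
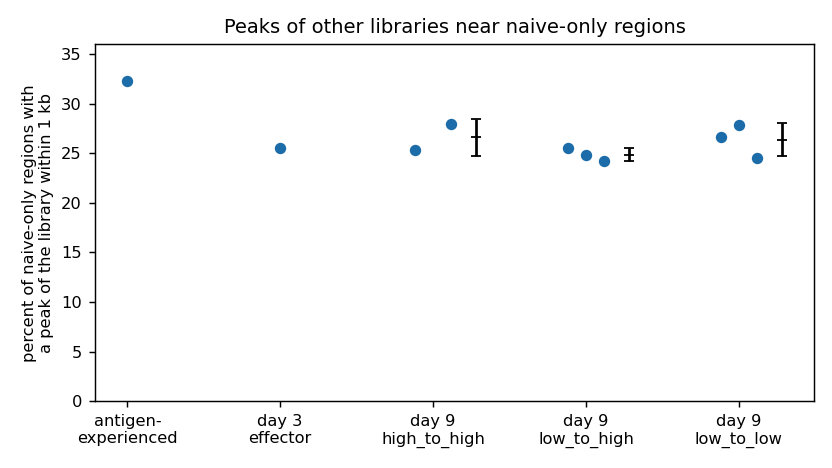
Percent of the 5322 naive-only regions with a peak of each library within 1 kb. Points are libraries, and horizontal marks with bars are the mean and SD of the day 9 groups (n = 2, 3 and 3). The antigen-experienced library stands at 32.2%, and all other libraries lie between 24.3% and 27.9%.

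Regions open in all 11 libraries near naive-only ones could also be followed, on log2(value + 1) centred on the median of each library. The 2242 that were nearest to a member within 10 kb had a median difference, effector minus naive, of -0.14. It was -0.15 over all 23471, with median naive values of 28.4 and 28.1. The pooled value hid a spread between the kinds of member. Near members alone and under 8-fold the difference was -0.29 (632 regions, median naive value 41.05). Near members beside another library's peak it was -0.18 (920 regions, 32.8). Near those alone at 8-fold or more it was -0.03 (49 regions, 16.9). Near weak members it was 0.08 (738 regions, 16.9). The reason for this spread was not tested. These medians come from 1 naive and 1 effector library and carry no test.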

How the data were processed

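ATAC-seq peak lists of 11 libraries were analysed. The authors called peaks per library with HOMER 4.10 findPeaks, without a control or pooling, with limits of 0.001 on the false discovery rate, 4-fold over the local 10 kb and 1e-04 on the local p-value, per the file headers. The submitters' processing notes also name Bowtie2, DESeq2 and mm10, with no role given. The deposited signal is a normalized tag count per 10 M tags. The deposited score is the caller's own, in tags, the deposited fold ratio compares a peak with its 10 kb, and a deposited fraction, not used, describes how tags gather at its centre. Up to 0.104% of a list (Y, unplaced sequence) was left out.

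Peaks were merged in Python 3.11.15 (pandas 2.3.3, scipy 1.17.1), checked against bedtools 2.31.1 and tested on simulated data. The region value was that of its peak, and no count test applied. Regions were assigned to the nearest protein-coding gene (RefSeq GRCm38.p6) within 100 kb. Motifs were searched in gene start windows only, since no genome sequence was used here. Naming rule: the 20 highest members, the highest per gene list (up to 6 for the resting and effector lists), the 8 genes with most members and the 5 highest over a start. Alternatives covered overlap, window width, thresholds and left-out libraries. Results for some genes that the naming rule selects are not reported here. The members and lists were chosen with earlier results of these data known.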

Additional observations from a re-analysis of the deposited data

How the results depend on the processing

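The number of naive-only regions (5322) stayed within 1.5 times under 6502 (shared only where another library covers at least 50% of the naive window), 4329 (another peak within 200 bp counts as shared), 5011 (all windows set to 200 bp) and leaving out 1 day 9 replicate (5398 to 6257, the highest without high_to_high replicate 2), the effector library (5875) or the antigen-experienced library (7378). It fell to 3026 where a peak within 1 kb counts as shared, 1268 at 8-fold or more, 2701 at 2 times the lowest value and, in a setting chosen after seeing the data, 2190 at a score of 2 times the threshold. The weak share (49.2%) and the median (5.46) were 47.1% and 5.73, 52.2% and 5.2, and 58.5% and 4.66 under the 3 overlap rules, 61.8% and 4.66 at 8-fold, 43.0% and 6.13 without the antigen-experienced library, and 45.7 to 49.8% and 5.46 to 5.86 without 1 day 9 replicate. By construction the weak share was 0 at 2 times the lowest value (median 11.3) and at the higher score (median 14.1). It was 30.6% and 65.4% with weak limits of 1.5 and 3 times. The share inside genes (60.3%) moved to 47.6% at 8-fold, 62.6% at 2 times the lowest value and 62.7% at the higher score. Beyond the thresholds, the cause of these moves was not tested.

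The difference between YFP-high and YFP-low libraries stayed negative and past no threshold in all alternatives, at -1.71 to -0.060 points without 1 replicate. With the replicate block it was -1.09 points (exact permutation p = 0.333). The labels do not say what the numbers share. Deviations of same-numbered low_to_low and low_to_high libraries correlated at 0.191, 0.100 and 0.099, each higher than with other numbers, but those of high_to_high with the others at -0.045 to 0.003, so no pairing was assumed. The lowest naive value rests on 10 tags, and the part of depth in the weak members was not tested.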
